A study of Mus musculus with 6 samples.

Results

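Hox genes encode homeodomain transcription factors that tell cells where they lie along the body axis, and the rows of the deposited count table whose symbol is Hoxa, Hoxb, Hoxc or Hoxd followed by a number were taken here. That rule found 39 genes among 44788 symbols. The tissue was the tail tendon of mice on the C57BL/6 background, labelled as 3 weeks old (the text of the study gives an older age for the same experiment). The libraries came from 3 wild-type (WT) and 3 Mkx-/- samples, without treatment in either group, and were made from total RNA and sequenced on the Ion Proton system. Mkx encodes Mohawk, an atypical homeodomain protein needed for tendon collagen, and the labels name the null genotype without naming a promoter, a Cre driver or a clone. The labels number the samples but do not say that each is a separate animal, so the p-values measure the spread between these samples. Bulk RNA of a whole tissue was measured, and fewer cells of a type and less RNA per cell cannot be told apart.

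Mammals hold their Hox genes in 4 clusters. Within a cluster, the genes of the low-numbered paralog groups are switched on first and up to anterior limits, whereas those of the high-numbered groups are switched on last and toward the tail, an arrangement called collinearity. Paralog group 9 and above are called posterior here, and group 13 genes are known to end axial growth. Mice without Hoxb13 grow longer tails. Connective tissue cells of adult animals keep a Hox pattern that reflects their place in the body, and Polycomb complexes keep the genes of the other positions silent. Hox proteins bind DNA with partners of the TALE class, the Pbx, Meis and Pknox proteins.

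In mm9 coordinates, the HoxA genes (11 members) lie on chromosome 6, the HoxB genes (10 members) on chromosome 11 from 96055630 to 96229570, the HoxC genes (9 members) on chromosome 15 from 102751534 to 102867274, and the HoxD genes (9 members) on chromosome 2 from 74506367 to 74603200. The HoxA genes are on the minus strand and the others on the plus strand. Some exons overlap in the annotation, and reads in them can be split or counted for either gene. Among Hox genes this was so for Hoxa2 with Hoxa3, Hoxb7 with Hoxb8, and Hoxd3 with Hoxd4 on the same strand. Hoxa11 overlapped its opposite-strand RNA. Other transcripts overlapped further members, among them Gm20440 with Hoxd10 and Hoxd11 and Gm20398 with Hoxc5 and Hoxc10, on the same strand. The study does not state whether strand was used in counting.

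The clusters also encode microRNAs of the miR-10, miR-196 and miR-615 families. The mature RNAs are shown because their shared seeds group them into families, with the seed (bases 2 to 8) in capitals, 5′ to 3′ and as given by RefSeq for GRCm38.p6.
mmu-miR-10a-5p: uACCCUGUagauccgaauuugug
mmu-miR-10b-5p: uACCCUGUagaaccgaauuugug
mmu-miR-196a-5p: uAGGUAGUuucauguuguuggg
mmu-miR-196b-5p: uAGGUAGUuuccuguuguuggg
mmu-miR-615-3p: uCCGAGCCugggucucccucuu
miR-10a and miR-10b share the seed ACCCUGU, and miR-196a and miR-196b share the seed AGGUAGU. miR-196 is known to cleave the Hoxb8 transcript. Mir196a-1 had 20, 9 and 28 counts in WT and 17, 15 and 17 counts in Mkx-/- libraries. These are reads over the hairpin gene in a total RNA library and do not measure the mature RNA. Mir196a-2 had 0 counts in every library, and Mir10a, Mir10b, Mir196b and Mir615 each had between 0 and 4 counts per library.

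The libraries held between 10835070 and 14160301 counts. Hox genes together took 0.0238% to 0.0269% of the counts in WT and 0.0270% to 0.0303% in Mkx-/- libraries. These shares are not normalized, and Col1a1, Col1a2 and Sparc alone took 41.97% to 48.47% of the counts in WT and 28.35% to 34.77% in Mkx-/- libraries. In CPM normalized as described below, the Hox sums overlapped, at 237.2 to 305.6 in WT and 239.7 to 301.1 in Mkx-/- libraries. The targeted gene Mkx had 144, 136 and 135 normalized CPM (counts scaled to a common library size) in WT and 56.8, 41.4 and 38.9 CPM in Mkx-/- libraries, a log2 fold change of -1.60 (standard error, SE, 0.16, adjusted p in edgeR = 0.00183). Reads on Mkx were thus lower in all 3 Mkx-/- libraries without being absent, and the counts do not show from which exons they came. WT replicate 1 stood apart from the other WT libraries, with a chi-square per degree of freedom of 37.4 and 39.8 against them, where WT replicates 2 and 3 gave 7.98 against each other. Judged by Ddx3y and Xist counts, WT replicate 3 was from a male and the other 5 libraries from females. Tendon markers (8 of 8 tested) summed to 381900 to 524600 CPM in WT and 244900 to 339600 CPM in Mkx-/- libraries. They were thus the most abundant of the marker lists in every library. Col1a1 and Col1a2 held most of this sum (means of 185330 and 257910 CPM in WT, 115590 and 127460 CPM in Mkx-/- libraries). Of the 8, edgeR called 1 higher (Thbs4, log2 fold change 1.265, adjusted p in edgeR = 0.0118) and 0 lower, beside 3.18% and 2.26% of all genes. DESeq2 called 1 higher and 3 lower, beside 5.41% and 4.04%.

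The first question was which Hox genes tail tendon expresses. Levels of different genes were compared as normalized CPM per kb of annotated exon. In WT tendons the posterior groups 9 to 13 (16 of the 39 genes) made up 78.8%, 84.3% and 83.1% of the summed Hox level. In Mkx-/- tendons they made up 85.7%, 81.7% and 83.7%, and the genotypes overlapped. Groups 4 to 8 (15 genes) held 14.2% ± 2.43 (SD, n = 3) in WT, and groups 1 to 3 (8 genes) held 3.72% ± 0.432 (SD, n = 3). The total over all 39 genes was 139.7 ± 19.1 CPM per kb in WT, against 139 ± 17.1 CPM per kb in Mkx-/- tendons (SD, n = 3).

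**Figure D1:**
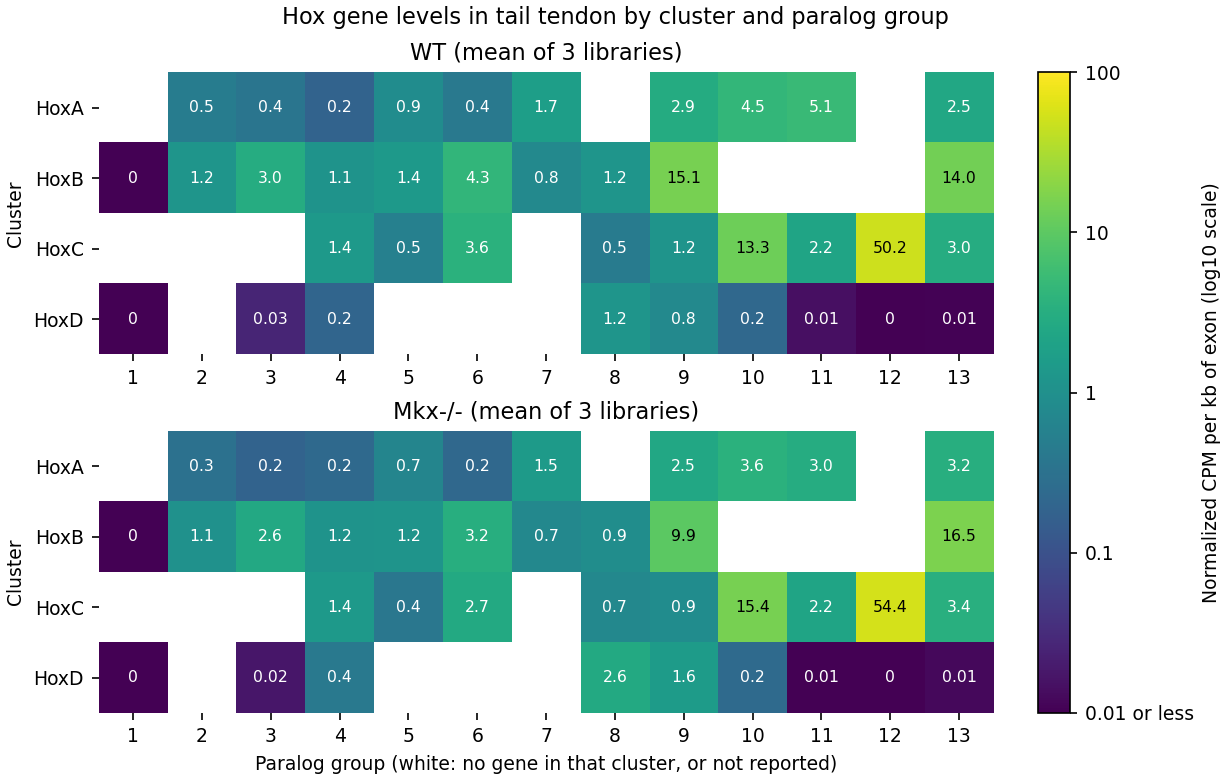
Mean level of the Hox genes reported, in normalized CPM per kb of exon (colour on a log10 scale, value printed in the cell), by cluster (rows) and paralog group (columns), in WT (top) and Mkx-/- tendons (bottom, 3 libraries each). The brightest cells lie in groups 9 to 13 of HoxA, HoxB and HoxC, led by Hoxc12 at 50.2 in WT, while HoxD groups 10 to 13 are near 0.

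The clusters contributed unequally. HoxC genes held 54.4% ± 1.66 (SD, n = 3) of the summed level per kb in WT, HoxB genes 30.0% ± 1.90 (SD, n = 3), HoxA genes 13.8% ± 0.578 (SD, n = 3) and HoxD genes 1.77% ± 0.195 (SD, n = 3). Without division by length, HoxC had 1230, 1157 and 1383 counts in WT, and HoxB had 1060, 1152 and 1543. The lead of HoxC over HoxB in WT thus depends on that division. Among paralog groups, group 12 was highest in WT with 50.2 ± 9.10 CPM per kb (SD, n = 3), and it came from Hoxc12 alone because Hoxd12 had 0 counts. Groups 9, 13 and 10 followed with 19.98 ± 6.94, 19.5 ± 1.59 and 18.1 ± 0.920 CPM per kb (SD, n = 3), values that overlapped between libraries. Group 6 came next with 8.32 ± 1.18 CPM per kb and group 11 with 7.23 ± 1.32 CPM per kb (SD, n = 3). Each of the remaining groups was at 3.33 CPM per kb or below. Level therefore did not rise step by step with group number. The place of group 12 above group 9 also depends on the division by length. In CPM, Hoxc12 had a WT mean of 51.8, while Hoxb9, Hoxa9, Hoxc9 and Hoxd9 had 38.95, 10.1, 2.89 and 1.65.

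Hoxc12, on chromosome 15 from 102767188 to 102769040, had the highest level of all members. It measured 39.8, 56.6 and 54.2 CPM per kb in WT and 60.4, 46.1 and 56.7 CPM per kb in Mkx-/- libraries. Every one of these values lay above the highest value of any other Hox gene, 21.7 CPM per kb for Hoxb9 in WT replicate 3. The annotated exons of Hoxc12 span only 1031 bases, the shortest of the members, which raises a value per kb. By mean it was also first before division by length, with 51.8 ± 9.38 CPM in WT, against 56.1 ± 7.64 CPM in the Mkx-/- group (SD, n = 3). In CPM, however, Hoxc12 and Hoxb9 overlapped between WT libraries, with Hoxc12 at 41.0 CPM in replicate 1 and Hoxb9 at 55.8 CPM in replicate 3. The log2 fold change of Hoxc12 was 0.12 (95% interval -0.27 to 0.50, adjusted p in edgeR = 0.739).

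The next 3 genes could not be ordered beyond their spread in WT. Hoxb9, a thoracic patterning gene, measured 7.499, 16.2 and 21.7 CPM per kb in the WT libraries. Hoxb13, the gene known to limit tail growth, measured 12.7, 15.6 and 13.6 CPM per kb. Hoxc10, of the group that represses ribs, measured 12.5, 13.8 and 13.7 CPM per kb. Hoxb9 thus varied about its mean far more than the other two, and WT replicate 1 held its lowest WT value.

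In Mkx-/- libraries Hoxb13 measured 18.8, 15.7 and 15.0 CPM per kb, and its group overlapped that of WT by a narrow margin. In normalized CPM its log2 fold change was 0.24 (95% interval -0.08 to 0.56, adjusted p in edgeR = 0.356). Hoxc10 measured 18.3, 13.1 and 14.7 CPM per kb in Mkx-/- libraries, with a log2 fold change of 0.20 (95% interval -0.14 to 0.54, adjusted p in edgeR = 0.467). Neither gene passed the test.

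Hoxa11, of the group that patterns the sacrum and the middle limb segment, and Hoxa10 completed the 6 highest genes in WT. Hoxa11 measured 3.37, 5.88 and 5.93 CPM per kb and Hoxa10 measured 4.31, 4.37 and 4.801 CPM per kb in the WT libraries. These overlapped each other and Hoxb6, which followed with 5.199, 3.92 and 3.86 CPM per kb. Divided by the longest transcript in place of all exons, Hoxa10 ranked 5 and Hoxa11 ranked 7, while the order of the first 4 genes was as before. The group 13 genes Hoxc13 (known for its role in hair and nails) and Hoxa13 (digits and the urogenital tract), had means of 2.98 ± 0.263 and 2.53 ± 0.280 CPM per kb in WT (SD, n = 3).

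**Figure D2:**
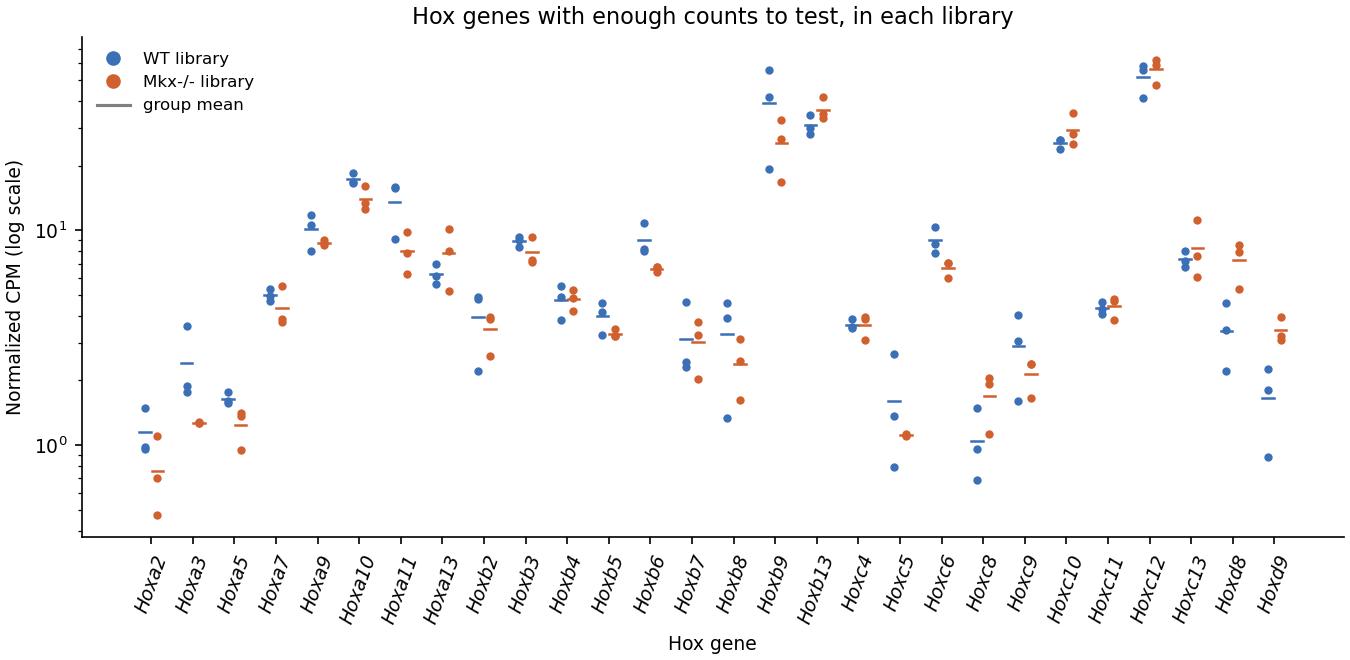
Normalized CPM (log axis) of the 28 Hox genes with enough counts to test, with each point a library and each line the mean of 3 libraries, WT in blue and Mkx-/- in orange. Hoxc12, Hoxb9, Hoxb13 and Hoxc10 have the 4 highest means in both genotypes, and in Hoxd8 and Hoxd9 the 3 Mkx-/- libraries lie above the 3 WT libraries.

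HoxD was the exception among the posterior genes. Its groups 10 to 13 (4 genes) had 52 counts over all 6 libraries, where the same groups had 2417 counts in HoxA (3 genes), 2445 in HoxB (Hoxb13 alone) and 6782 in HoxC (4 genes). Hoxd10 had 6, 10 and 4 counts in WT and 5, 10 and 10 in Mkx-/- libraries. Exons of Hoxd10 and Hoxd11 overlap Gm20440 on the same strand, so some of their reads may be missing from these counts. Hoxd11 had between 0 and 2 counts per library, Hoxd12 had 0 in every library, and Hoxd13, required for digits, had 1 count in WT replicate 1 and 1 in Mkx-/- replicate 1. At this depth 3 counts, the limit that a count of 0 allows, correspond to 0.211 to 0.294 CPM, a limit that covers counting error only. Hoxd13 at the posterior end, at 0 or 1 count per library, was therefore near the limit of detection, while its paralog Hoxb13 had 351 to 493 counts per library.

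Besides those 4 genes, further members had too few counts to test, among them Hoxa4, Hoxa6, Hoxb1, Hoxd1, Hoxd3 and Hoxd4. Hoxb1 and Hoxd1 had 0 counts in every library, and with Hoxd12 these were 3 members at 0 throughout. Hoxa4 and Hoxa6 had between 0 and 13 counts per library, and Hoxd3 between 0 and 3. Hoxd4 had 4, 7 and 7 counts in WT and 7, 13 and 21 counts in Mkx-/- libraries. Of the 28 tested genes, 24 exceeded the filter's cut-off of 0.819 CPM in every library, and Hoxa2 exceeded it in 3 WT but only 1 Mkx-/- library.

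The second question was whether Mkx-/- tendons kept this pattern. With edgeR's quasi-likelihood test and adjustment over all 14550 genes tested, 0 of the 28 Hox genes passed an adjusted p of 0.05, where 5.44% of all genes did (3.18% higher and 2.26% lower in Mkx-/- tendons). At an unadjusted p under 0.05 there were 6 Hox genes, or 21.4%, beside 22.6% of all genes. Of these, 2 were higher (7.14%, beside 12.5% of all genes) and 4 were lower (14.3%, beside 10.1%). DESeq2 placed 1 Hox gene, Hoxd8, past the threshold (3.57%, beside 9.45% of all genes). The 2 genotypes did not overlap in 7 Hox genes, or 25%, beside 28.2% of all genes. With both directions pooled, these shares of Hox genes were near or below the background.

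Fold changes of the 28 genes ran from -0.93 to 1.10 on the log2 scale with a median of -0.20, beside -0.0037 for all genes. The log2 fold change was below 0 in 18 of the 28, or 64.3%, beside 50.5% of all genes. Scaled by library size only, 12 of the 28 were below 0, but this scaling moved the median of all genes to 0.25, and 19 of the 28 lay below that median. Half-widths of the 95% intervals, which are not adjusted for the number of genes, had a median of 0.56 on the log2 scale. Differences smaller than that were mostly not detectable with 3 libraries per genotype. The adjusted threshold asked for more, since Hoxd8 at 1.10 did not pass it (adjusted p in edgeR = 0.0738).

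**Figure D3:**
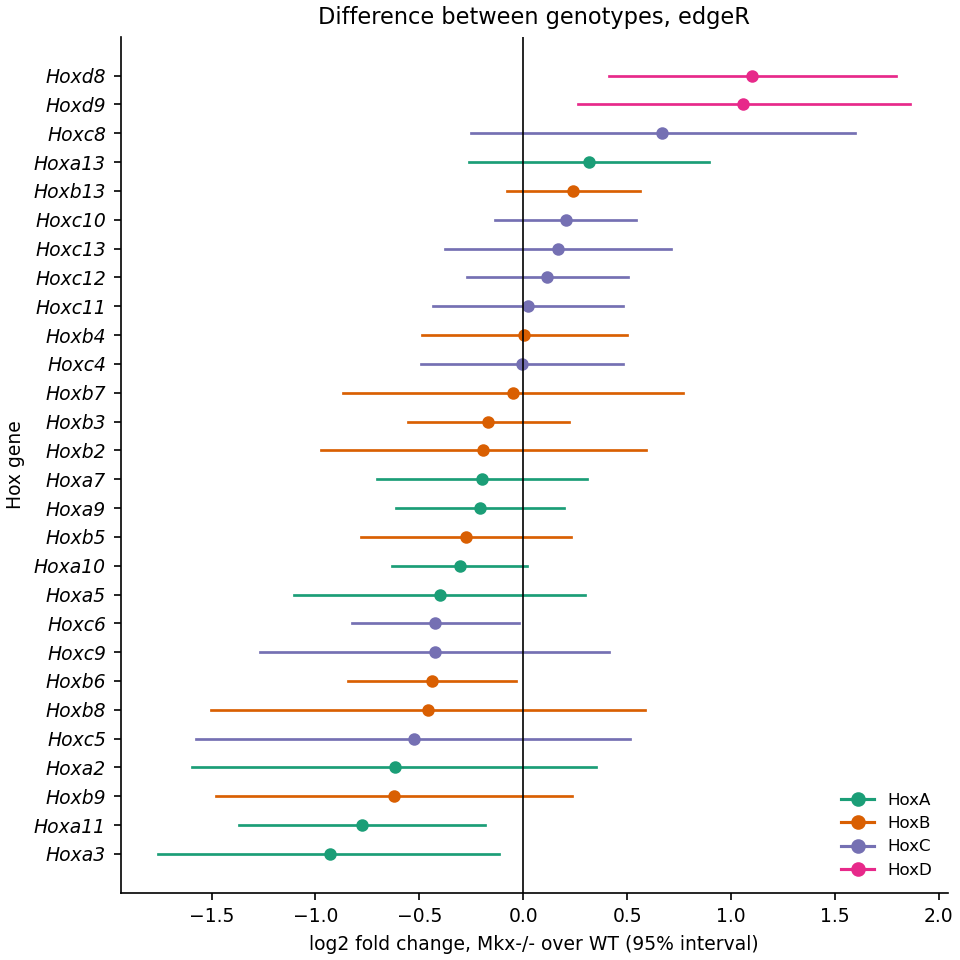
Log2 fold change of each tested Hox gene, Mkx-/- over WT, with its 95% interval from edgeR, ordered by size and coloured by cluster. Both tested HoxD genes are at the top at 1.10 and 1.06, and Hoxa3 and Hoxa11 are at the bottom at -0.93 and -0.77.

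The genes at the ends of this order, and Hoxb9, are described by library although they passed no threshold in edgeR, and they were singled out after their values were seen. Hoxd8, on chromosome 2 from 74542672 to 74545990, measured 2.21, 3.44 and 4.57 CPM in WT and 5.31, 7.94 and 8.56 CPM in Mkx-/- libraries. All 3 Mkx-/- libraries were above all 3 WT libraries. The means were 3.40 ± 1.18 CPM and 7.27 ± 1.72 CPM (SD, n = 3), a log2 fold change of 1.10 (SE 0.30, 95% interval 0.41 to 1.79, adjusted p in edgeR = 0.0738). DESeq2 gave an adjusted p of 0.0227. Over 14 alternatives the edgeR or DESeq2 adjusted p of Hoxd8 ran from 0.0164 to 0.214 and passed the threshold in 3.

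Its neighbour Hoxd9, on chromosome 2 from 74535737 to 74538265, measured 1.81, 2.26 and 0.881 CPM in WT and 3.94, 3.23 and 3.09 CPM in Mkx-/- libraries. The groups again did not overlap. The means were 1.65 ± 0.702 CPM and 3.42 ± 0.454 CPM (SD, n = 3), a log2 fold change of 1.06 (SE 0.35, 95% interval 0.27 to 1.86, adjusted p in edgeR = 0.116). Without WT replicate 3, which held the lowest value, the log2 fold change was 0.73 (adjusted p in edgeR = 0.242). Hoxd9 rests on 11 to 46 counts per library.

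The promoters of Hoxd8 and Hoxd9, whose levels moved in the same direction, and of Hoxd13, which was near 0 in the same cluster, are printed from RefSeq for GRCm38.p6, from 250 bases before the start to 50 after it on the plus strand, 5′ to 3′ with CG dinucleotides in capitals. They lie at chr2:74704365-74704664 for Hoxd8, chr2:74697513-74697812 for Hoxd9 and chr2:74667975-74668274 for Hoxd13.
Hoxd8: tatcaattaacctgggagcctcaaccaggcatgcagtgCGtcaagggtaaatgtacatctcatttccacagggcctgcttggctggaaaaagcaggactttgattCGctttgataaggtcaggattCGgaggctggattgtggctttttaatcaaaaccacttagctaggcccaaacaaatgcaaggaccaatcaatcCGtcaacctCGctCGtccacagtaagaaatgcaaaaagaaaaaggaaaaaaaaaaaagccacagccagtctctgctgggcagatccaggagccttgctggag
Hoxd9: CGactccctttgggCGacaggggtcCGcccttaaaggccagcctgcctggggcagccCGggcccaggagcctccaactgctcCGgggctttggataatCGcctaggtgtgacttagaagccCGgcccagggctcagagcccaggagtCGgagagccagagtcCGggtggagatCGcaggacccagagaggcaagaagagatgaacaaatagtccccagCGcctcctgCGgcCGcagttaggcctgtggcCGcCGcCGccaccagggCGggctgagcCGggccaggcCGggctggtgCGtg
Hoxd13: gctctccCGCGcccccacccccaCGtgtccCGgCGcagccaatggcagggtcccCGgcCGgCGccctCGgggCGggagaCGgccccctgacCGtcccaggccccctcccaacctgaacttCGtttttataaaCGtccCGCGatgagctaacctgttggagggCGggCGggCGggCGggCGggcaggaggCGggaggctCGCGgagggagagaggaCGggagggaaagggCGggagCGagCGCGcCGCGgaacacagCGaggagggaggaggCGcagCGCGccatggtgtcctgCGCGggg
Hoxd8 held 6 CG dinucleotides, Hoxd9 20 and Hoxd13 37. RefSeq promoters were matched for 22 of the 39 members (24 promoters). Their median was 14.5 CG dinucleotides and a GC content of 57.7%, against 7 and 52.7% over all 32841 promoters. The motif TATAAA, on either strand, was in 4 of the 24 (16.7%), those of Hoxa10, Hoxb8, Hoxd4 and Hoxd13, and in 13.6% of all promoters. The motif TGATTNAT, a Pbx and Hox site, was in 2 of the 24 (8.33%, those of Hoxa2 and Hoxd11) and in 3.22% of all promoters. TGACAG, a Meis site, was in 2 of the 24 (8.33%) and in 19.2% of all, and TTTATNG, a posterior Hox site that can overlap TATAAA, was in 2 of the 24 (8.33%) and in 10.9% of all. None of the 4 motifs was in the windows of Hoxd8 or Hoxd9.

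Summed over its 9 genes, HoxD measured 1.996, 2.98 and 2.45 CPM per kb in WT and 4.20, 5.02 and 5.54 CPM per kb in Mkx-/- libraries. As a share of the Hox level this was 1.70%, 1.99% and 1.62% in WT and 2.67%, 4.08% and 4.03% in Mkx-/- libraries, without overlap. Sums carry no test here. Of the posterior HoxD genes, groups 10 to 13 summed to 0.248 ± 0.118 CPM per kb in WT, against 0.267 ± 0.0528 CPM per kb in the Mkx-/- group (SD, n = 3), with overlapping libraries. The higher HoxD sum thus lay in Hoxd4, Hoxd8 and Hoxd9.

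Schwann cell markers moved in the same direction as Hoxd8. The 3 markers Sox10, Mbp and Cdh19 summed to 1674 to 2402 CPM in WT and 2863 to 5349 CPM in Mkx-/- libraries, none was at 0, and 2 of the 3 were higher at an unadjusted p under 0.05, beside 12.5% of all genes. Mbp, which encodes myelin basic protein, measured 1643, 2304 and 2363 CPM in WT and 2822, 4457 and 5259 CPM in Mkx-/- libraries, so its libraries fell in the same order as those of Hoxd8. Sox10 and Cdh19 did not rank the libraries in that order, and the order was compared after the values were seen. Skeletal muscle markers (8 of 8 tested) summed to 30.0 to 324 CPM in WT and 441 to 2291 CPM in Mkx-/- libraries. Of these 8, edgeR called Tnnt3 and Tnnc2 higher (beside 3.18% of all genes) and 0 lower (beside 2.26%). DESeq2 called 4 of them higher (beside 5.41%) and 0 lower (beside 4.04%). Endothelial markers (6 of 6 tested) summed to 40.4 to 53.7 CPM and 50.1 to 94.2 CPM, and chondrocyte markers to 534 to 1064 CPM and 739 to 1236 CPM. Col2a1 held most of the chondrocyte sum (log2 fold change -0.08, adjusted p in edgeR = 0.905). Of 4 tested chondrocyte markers, edgeR called 2 higher (beside 3.18% of all genes) and 0 lower (beside 2.26%). These were Acan and Matn3, at 2.20 and 1.45 (adjusted p in edgeR = 0.0038 and 0.00181). DESeq2 called 3 higher (beside 5.41%) and 0 lower (beside 4.04%). Keratinocyte markers summed to 0.788 to 6.77 CPM in WT and 9.77 to 13.2 CPM in Mkx-/- libraries. Macrophage and leukocyte markers were lower in Mkx-/- libraries at 254 to 303 CPM against 389 to 436 CPM. Of 6 tested, edgeR called 0 higher (beside 3.18% of all genes) and Csf1r and Emr1 lower (beside 2.26%). DESeq2 called 0 of them higher (beside 5.41%) and 3 lower (beside 4.04%). The part of these cell types in the Hox values was not tested.

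**Figure D4:**
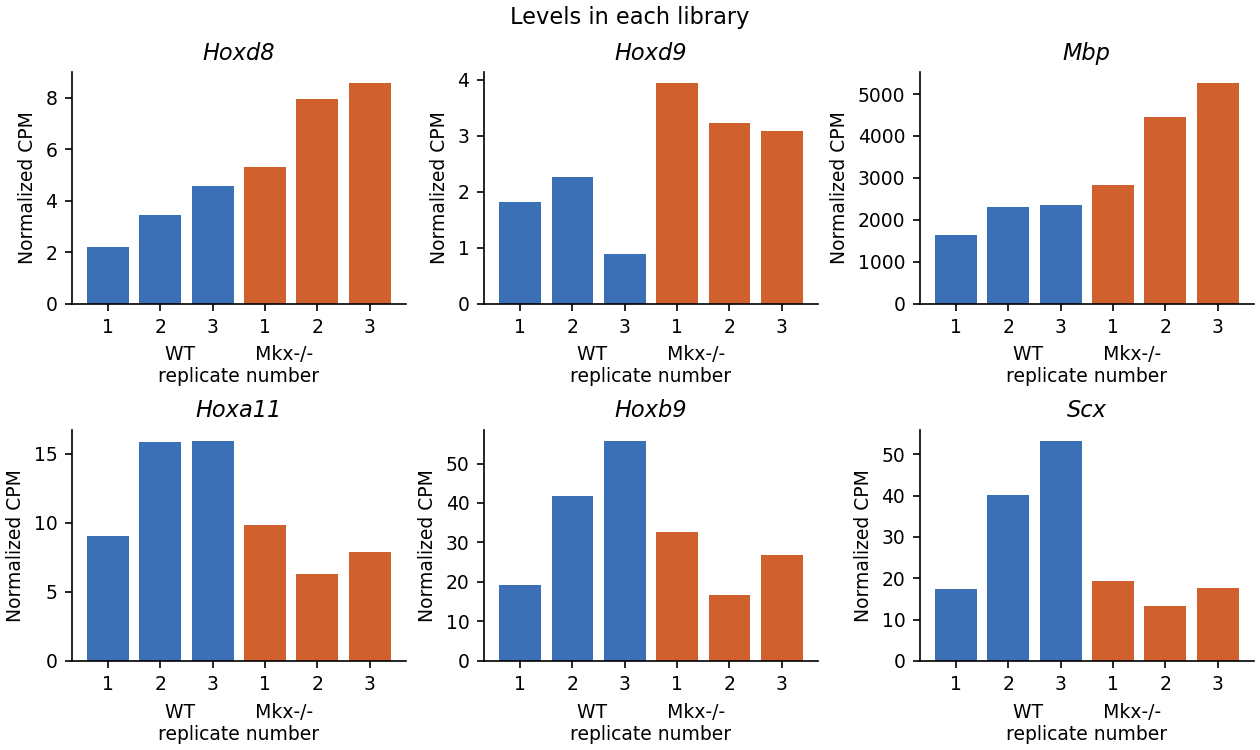
Normalized CPM in each library (bars from 0, WT in blue, Mkx-/- in orange, replicate number below) of 4 Hox genes, with the Schwann cell marker Mbp and the tendon transcription factor Scx. Hoxd8 and Mbp rank the 6 libraries alike (Sox10 and Cdh19 do not), and Hoxb9 and Scx are both highest in WT replicates 3 and 2.

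Hoxa11 had the second most negative log2 fold change of the Hox genes. It measured 9.06, 15.8 and 15.9 CPM in WT and 9.80, 6.25 and 7.85 CPM in Mkx-/- libraries. WT replicate 1 lay below Mkx-/- replicate 1, so the groups overlapped. The log2 fold change was -0.77 (SE 0.26, 95% interval -1.37 to -0.18, adjusted p in edgeR = 0.121). Without WT replicate 1 it was -1.003 (adjusted p in edgeR = 0.0233), and over 14 alternatives the adjusted p ran from 0.0233 to 0.298 and passed in 2.

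Hoxa11os, the RNA from the strand opposite to Hoxa11, was more abundant in reads than Hoxa11 in every library. It had 264, 323 and 337 counts in WT and 305, 267 and 275 counts in Mkx-/- libraries. The ratio of Hoxa11os to Hoxa11 counts was 2.30, 2.01 and 1.69 in WT and 2.85, 3.00 and 2.78 in Mkx-/- libraries, without overlap. Hoxa11os itself had a log2 fold change of -0.22 (95% interval -0.67 to 0.24, adjusted p in edgeR = 0.573). Because the use of strand in counting is not stated, reads of the 2 genes in their shared exons may not be separated.

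Hoxb9 measured 19.3, 41.7 and 55.8 CPM in WT and 32.7, 16.7 and 26.7 CPM in Mkx-/- libraries, and the groups overlapped. Its log2 fold change was -0.62 (95% interval -1.48 to 0.24, adjusted p in edgeR = 0.375). Without WT replicate 1 it was -0.95 (adjusted p in edgeR = 0.0607). Scx, the transcription factor that marks tendon cells, measured 17.3, 40.2 and 53.4 CPM in WT and 19.4, 13.3 and 17.5 CPM in Mkx-/- libraries. In WT, Hoxb9, Hoxa11 and Scx were thus all lowest in replicate 1. Of the 8 tendon markers, 6 were lowest in WT replicate 1, while Fmod and Dcn were highest there.

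Hoxa3, a gene of pharyngeal development, measured 1.89, 1.77 and 3.60 CPM in WT and 1.28, 1.26 and 1.27 CPM in Mkx-/- libraries. Its log2 fold change was -0.93 (95% interval -1.76 to -0.12, adjusted p in edgeR = 0.167). Without WT replicate 3, which held the highest value, it was -0.54 (adjusted p in edgeR = 0.436). The annotation of Hoxa3 spans other HoxA genes, so reads may be shared. Hoxb6 measured 10.8, 8.15 and 8.01 CPM in WT and 6.78, 6.39 and 6.74 CPM in Mkx-/- libraries, with a log2 fold change of -0.44 (adjusted p in edgeR = 0.188). Hoxc6 measured 10.4, 7.85 and 8.65 CPM in WT and 7.05, 7.03 and 6.02 CPM in Mkx-/- libraries, with a log2 fold change of -0.42 (adjusted p in edgeR = 0.198). The genotypes did not overlap in these 3 genes. The same held for Hoxa5 and Hoxa10, at -0.40 and -0.31 (adjusted p in edgeR = 0.484 and 0.246). Lower levels without overlap were seen in 5 Hox genes (17.9%), beside 13.6% of all genes, and higher levels without overlap in 2 (7.14%), beside 14.6%.

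Of the remaining tested genes, whose groups all overlapped, Hoxc8 had the largest difference at 0.67 on the log2 scale (95% interval -0.25 to 1.597), on 7 to 26 counts per library. Hoxa13 and Hoxc13, the other group 13 genes, had log2 fold changes of 0.32 and 0.17 (adjusted p in edgeR = 0.506 and 0.732). All 3 tested group 13 genes therefore had values above 0, none past the threshold. Hoxc11, Hoxb4 and Hoxc4 were closest to 0, at 0.02, 0.0057 and -0.0068.

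The clusters' shares were also compared, without a test. HoxC held 55.7%, 55.0% and 52.6% in WT and 58.7%, 57.1% and 59.6% in Mkx-/- libraries, and HoxA 14.3%, 13.2% and 13.8% against 11.5%, 12.2% and 9.97%. Neither pair of groups overlapped. HoxB held 28.2%, 29.8% and 32.02% in WT and 27.2%, 26.6% and 26.3% in Mkx-/- libraries, again without overlap. Group 11 made up 5.15% ± 0.271 in WT and 3.71% ± 0.175 in Mkx-/- tendons, and group 8 made up 2.07% ± 0.424 and 3.12% ± 0.553 (SD, n = 3). Because the shares sum to a whole, a change in 1 abundant gene such as Hoxb9 moves them all.

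Other genes of the Hox system were read from the same fit, where 5.44% of all genes passed in edgeR, 22.6% had an unadjusted p under 0.05 and DESeq2 called 9.45% (5.41% higher and 4.04% lower). Of 8 tested TALE cofactors, edgeR called 0 higher and 2 lower, and DESeq2 called 1 higher and 2 lower. In edgeR 5 of the 8 had an unadjusted p under 0.05 (62.5%, beside 22.6% of all genes), 1 higher and 4 lower. Meis1 measured 8.19, 10.9 and 10.98 CPM in WT and 5.50, 5.55 and 5.39 CPM in Mkx-/- libraries, a log2 fold change of -0.87 (SE 0.18, adjusted p in edgeR = 0.0306). Pknox2 measured 30.3, 29.1 and 20.6 CPM in WT and 13.6, 14.1 and 12.7 CPM in Mkx-/- libraries, a log2 fold change of -0.99 (SE 0.17, adjusted p in edgeR = 0.0167). The call of Meis1 was lost without any 1 library other than WT replicate 1 (adjusted p in edgeR of 0.0687 to 0.106), and that of Pknox2 without WT replicate 2, Mkx-/- replicate 2 or Mkx-/- replicate 3 (0.0668, 0.0540 and 0.0623). The call of Meis1 was also lost when scaled by library size only (adjusted p in edgeR = 0.0674). Meis3, the gene called higher by DESeq2 (adjusted p = 0.0406), had a log2 fold change of 0.83 in edgeR (adjusted p = 0.0857), without overlap. The median log2 fold change of the list was -0.36.

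Of 22 Polycomb genes, 0 passed the threshold in edgeR, 2 had an unadjusted p under 0.05 (9.09%, beside 22.6% of all genes) and DESeq2 called 0. Phc2, a subunit of Polycomb repressive complex 1, had the smallest p in this list, with a log2 fold change of 0.43 (adjusted p in edgeR = 0.121). Of 12 trithorax and H3K27 demethylase genes, which oppose Polycomb, 0 passed in edgeR, 2 had an unadjusted p under 0.05 (16.7%, beside the same 22.6%) and DESeq2 called 1. Mllt3 led with -0.54 (adjusted p in edgeR = 0.0536, DESeq2 adjusted p = 0.0446). The median log2 fold changes of these lists were -0.07 and -0.13.

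Retinoic acid sets anterior Hox boundaries in the embryo. Of 15 tested genes of its pathway, edgeR called 2 higher (beside 3.18% of all genes) and 0 lower (beside 2.26%), and DESeq2 called 3 higher and 0 lower. The third was Rxrg, a retinoid receptor gene (DESeq2 adjusted p = 0.0474, adjusted p in edgeR = 0.0834). In edgeR 9 of the 15 had an unadjusted p under 0.05 (60%, beside 22.6% of all genes), 5 higher and 4 lower. Crabp2, which carries retinoic acid to its receptors, measured 1.89, 3.83 and 3.45 CPM in WT and 13.6, 10.3 and 12.8 CPM in Mkx-/- libraries, a log2 fold change of 2.01 (SE 0.26, adjusted p in edgeR = 0.00527). Cyp26a1, which degrades retinoic acid, measured 35.5, 17.8 and 28.1 CPM in WT and 62.3, 85.4 and 44.7 CPM in Mkx-/- libraries, a log2 fold change of 1.24 (SE 0.29, adjusted p in edgeR = 0.0489). Crabp2 passed in all 14 alternatives. Cyp26a1 passed in 8, and its call was lost in the robust fit (adjusted p in edgeR = 0.0630), and without WT replicate 2 or 3 or without Mkx-/- replicate 1 or 2 (adjusted p in edgeR of 0.0988 to 0.136). The list had a median of 0.08 and members on both sides of 0.

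Of 14 regulators of axial elongation, 5 had enough counts, and 0 passed in edgeR or DESeq2. In edgeR 2 of the 5 had an unadjusted p under 0.05 (40%, beside 22.6% of all genes). Cdx1, Cdx2 and Cdx4, which activate posterior Hox genes in the embryo, had 0 counts in every library. Evx1, the homeobox gene beside Hoxa13, had 7, 8 and 4 counts in WT and 18, 19 and 14 counts in Mkx-/- libraries (log2 fold change 1.31, adjusted p in edgeR = 0.107). Of 11 tested genes flanking the clusters, Evx1 among them, 0 passed in edgeR or DESeq2 and 2 had an unadjusted p under 0.05 (18.2%). Of 3 tested non-coding RNAs of the clusters, 0 passed in edgeR or DESeq2 and 0 had an unadjusted p under 0.05. Hotair, transcribed between Hoxc11 and Hoxc12, had means of 4.66 ± 0.990 and 4.70 ± 0.350 CPM (SD, n = 3).

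Genes that mark other positions completed the picture. Of 8 tested limb genes, edgeR called 2 higher (beside 3.18% of all genes) and 0 lower (beside 2.26%), and DESeq2 called 2 higher and 1 lower. The lower gene was Prrx1, a gene of limb mesenchyme, with a log2 fold change of -0.50 (DESeq2 adjusted p = 0.0491, adjusted p in edgeR = 0.101). In edgeR 3 of the 8 had an unadjusted p under 0.05 (37.5%, beside 22.6% of all genes), 2 higher and 1 lower. En1, which marks ventral limb ectoderm and parts of the dermis, measured 4.02, 6.87 and 4.89 CPM in WT and 20.1, 15.5 and 12.9 CPM in Mkx-/- libraries, a log2 fold change of 1.62 (SE 0.24, adjusted p in edgeR = 0.0102). Tbx15, a gene of skeletal and dermal patterning, had a log2 fold change of 0.99 (adjusted p in edgeR = 0.0388). The call of En1 was lost without WT replicate 3 (adjusted p in edgeR = 0.0584), and that of Tbx15 without any 1 library other than WT replicate 1 (0.0595 to 0.116). Pitx1, the hindlimb selector, had 0 counts in every library. Tbx4, another gene of the limb list, was present, with 72, 41 and 67 counts in WT and 38, 66 and 52 counts in Mkx-/- libraries (log2 fold change -0.30, adjusted p in edgeR = 0.476). Of 12 head skeleton genes 4 were testable and 0 passed in edgeR or DESeq2. In edgeR 2 of the 4 had an unadjusted p under 0.05 (50%, beside 22.6% of all genes), and Otx2 had 0 counts throughout. Of 5 tested somite genes, edgeR and DESeq2 called only Meox2, which rose, with 44.7, 48.2 and 47.4 CPM in WT and 70.1, 61.0 and 68.3 CPM in Mkx-/- libraries (log2 fold change 0.51, adjusted p in edgeR = 0.0417). Its call was lost without any 1 of the 6 libraries (0.0570 to 0.137). In edgeR 2 of these 5 somite genes had an unadjusted p under 0.05 (40%, beside 22.6% of all genes).

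**Figure D5:**
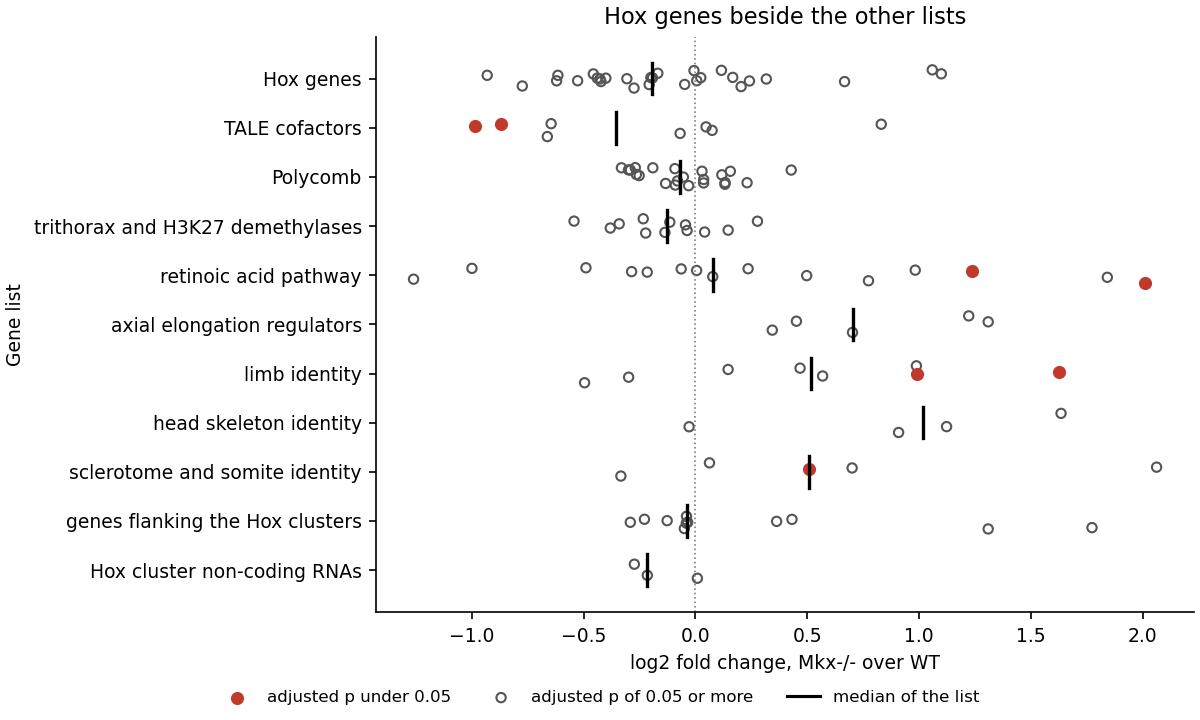
Log2 fold change, Mkx-/- over WT, of every tested gene in the Hox list and 10 other lists, with filled red points for an edgeR adjusted p under 0.05, open points for the rest and a black line at each median. The Hox list holds no filled point and has a median of -0.20, while Meis1 and Pknox2 are the filled points among the TALE cofactors.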

How the data were processed

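Total RNA of tail tendons from 3 WT and 3 Mkx-/- samples was analysed. Reads were trimmed and aligned to mm9 with MapSplice by the authors, who deposited unnormalized counts per gene symbol. The counting program, its annotation and its use of strand are not given in the sources used here. All 6 columns were matched to samples by their labels.

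From the counts, edgeR 4.0.16 in R 4.3.3 gave normalized CPM and log2 fold changes (TMM, filterByExpr, quasi-likelihood fit on genotype, Benjamini-Hochberg adjustment over 14550 genes, threshold 0.05). DESeq2 1.42.0, the study's tool, was an alternative. CPM per kb used the union of GENCODE exons on mm9. On simulated counts of this comparison, edgeR recovered 175 of 200 genes given a log2 change of 2 among 14550, with 10 false calls. DESeq2 recovered 176 of 200, with 32 false calls. Recovery at log2 fold changes of the size seen in Hox genes (-0.93 to 1.10) was not tested.

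The Hox members and the other lists were chosen with earlier results of these data known. A few items withheld for evaluation are not reported here. Text names the other Hox genes and gives library values for the 6 highest per kb in WT and any past the threshold. It also names Mkx, members of other lists called in edgeR and at most 3 others of each. Exceptions were named after their values were seen. Alternatives were other scalings, filters, a robust fit, leaving out each library, and a block on the replicate number. Division by the longest transcript and a call rule with a log2 fold change past 1 or -1 were added after seeing the data.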

Additional observations from a re-analysis of the deposited data

How the results depend on the processing

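Over all genes, edgeR placed 463 genes higher and 329 lower in Mkx-/- tendons past the threshold. DESeq2 gave 787 and 588, scaling by library size only 1358 and 197, a filter of 1 count in any library 970 and 594, and a log2 fold change past 1 or -1 (added after seeing the data) 275 and 193. Leaving out 1 library gave 117 to 539 higher and 127 to 439 lower, lowest in both without WT replicate 3. Deviations of same-numbered samples from their group means had correlations of -0.0003, -0.235 and 0.313. Those of differently numbered samples ran from -0.399 (WT replicate 1 with Mkx-/- replicate 3) to 0.442 (WT replicate 1 with Mkx-/- replicate 2). With 3 samples per group, these values cannot decide whether the numbers pair the samples. The replicate block gave 264 and 170 genes, and 0 Hox genes.

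For Hox genes, where edgeR placed 0 higher and 0 lower, DESeq2 gave 1 higher (Hoxd8), library size only 2 higher (Hoxd8 and Hoxd9), and a filter of 1 count in any library 1 higher (Hoxd8) and 1 lower (Hoxa11). Leaving out 1 library gave 0 to 0 higher and 0 to 1 lower, the 1 being Hoxa11 without WT replicate 1. The posterior share, 82.1% in WT and 83.7% in Mkx-/- tendons, was 75.4% and 76.6% in CPM without division by exon length, and 79.4% and 81.4% by the longest transcript (added after seeing the data). Leaving out 1 library gave 80.9% to 83.7% in WT and 82.7% to 84.7% in Mkx-/- tendons.

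For the 7 called genes of the other lists (cell type marker lists left out) and Mkx, the same alternatives, added after seeing the data, kept every direction. With the replicate block, Meis1, Cyp26a1, Tbx15 and Meox2 were no longer past the threshold (adjusted p in edgeR = 0.0708, 0.105, 0.0768 and 0.103), and neither were Meis1 with library size only (0.0674) and Cyp26a1 in the robust fit (0.0630). Directions of some Hox genes reversed, most of them near 0 and Hoxc5 at -0.53. Scaling by library size only moved the median log2 fold change of all genes to 0.25. With this scaling the values were 0.0539 for Hoxa7, 0.0572 for Hoxa9, 0.0809 for Hoxb2, 0.085 for Hoxb3, 0.2086 for Hoxb7 and 0.2405 for Hoxc4. Hoxb4 was at -0.0009 in DESeq2, -0.0004 with RLE and -0.0003 with upper-quartile scaling, and Hoxc4 at 0.0051 with the filter of 1 count. With 1 library left out, Hoxb4 ran from -0.136 to 0.1256, Hoxb7 from -0.2568 to 0.3136, Hoxc4 from -0.0722 to 0.0959, Hoxc5 from -0.8663 to 0.0416, Hoxc11 from -0.0495 to 0.1215, Hoxc12 from -0.0291 to 0.223 and Hoxc13 from -0.1279 to 0.3538. Of the alternative values for single Hox genes, 361 kept their direction and side of the threshold, 6 crossed it and 23 reversed, and the cause was not tested. Genes under about 20 counts per library, such as Hoxa2, Hoxc5 and Hoxc8, have wide intervals, and 3 libraries per genotype limit every comparison.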
